A study of Mus musculus with 13 samples.

Results

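The genes described here are those of the unfolded protein response and the integrated stress response in 4T1 mammary tumours. The list held 36 genes, and 34 of them had a feature under their own symbol among 19505 named genes and 22206 features tested. Pdia4 and Manf matched no feature by name and are not analysed here. The 34 genes were 12 chaperones and folding factors of the endoplasmic reticulum (ER), 4 genes of ER-associated degradation, 3 stress sensors together with Xbp1, 3 transcription factors of the integrated stress response and 11 targets of Atf4. Ddit3 alone had 2 features, of which the one with the higher mean was used.

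Unfolded proteins in the ER activate the sensors Ern1, Atf6 and Eif2ak3, and the first pair raise the transcription of chaperones and of degradation genes through spliced Xbp1 and cleaved Atf6. Eif2ak3 belongs to a family of kinases that phosphorylate the translation factor eIF2 alpha, which lowers translation in general while that of Atf4 rises. Atf4 then drives genes of amino acid supply, one-carbon metabolism and stress recovery. Tumours often show both programmes, because secretion, hypoxia and nutrient shortage load the same pathways, and since Atf4, Atf6 and Xbp1 are controlled after transcription, their mRNA does not give their activity.

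The study injected 1 of 3 cell lines into a mammary fat pad of WT BALB/c or Nlrx1-/- BALB/c mice and hybridised pooled tumour RNA to Clariom S mouse arrays. The lines were untransduced parental 4T1 (a carcinoma line from the mammary gland of a BALB/c mouse), a line overexpressing NLRX1 (4T1OE), and its overexpression control line (4T1OE-CTL). NLRX1 is a NOD-like receptor that resides at mitochondria, and the design sets its loss in the host beside its gain in the tumour cells. Each of the 6 groups held 2 arrays, 12 in all, and no treatment was given. The number of tumours in a pool, the age of the mice, the species of the construct and whether a transduced line was a clone were not given in the sources used here. An effect of overexpression cannot be told apart from any other difference between the lines, and the tumour cells carried their own Nlrx1 gene in either host.

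Nlrx1 itself exceeded its 4T1OE-CTL level in 4T1OE tumours by 3.39 on the log2 scale (SE 0.34, limma adjusted p = 0.00227), with 9.31 to 10.67 on the 4T1OE arrays and 5.99 to 7.13 on the others. The labels recommend leaving out the Nlrx1-/- parental replicate 1 array, so 11 arrays were fitted and a single Nlrx1-/- parental array remained, taken to vary as the other groups did. That array correlated least with the remaining ones (median r = 0.896, across features, which are no replicates) and had the narrowest spread of values (SD 2.53). The spread was also under 3 on WT parental replicate 1, WT 4T1OE-CTL replicate 1 and both Nlrx1-/- 4T1OE-CTL arrays, and was 3.09 to 3.12 on the 4T1OE arrays. On the 4T1OE-CTL arrays it was 2.78 to 3.07, below every 4T1OE array. A model that holds the array spread can therefore hardly separate it from these lines. Leaving out the arrays of spread under 3 keeps only WT replicate 2 of 4T1OE-CTL, so that setting cannot show whether a call holds. Of the 9 epithelial markers, Epcam was at 13.02 to 14.95 on the fitted parental arrays and at 6.94 to 9.81 on all arrays of both transduced lines. Each value below is the deposited log2 expression of 1 feature, and levels are not compared between genes. In bulk tumour RNA, fewer cells of a type and less RNA per cell cannot be told apart.

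Promoter windows of the genes were taken from RefSeq (build GRCm38.p6, 250 bases before to 50 after the annotated start), because the response elements of both programmes have known letters. Windows were found for 33 of the 36 listed genes, none for Hyou1, Manf or Atf6, and 4 motifs were searched on both strands. The 12 chaperones with a window are not the 12 measured ones: they lack Hyou1 and include Pdia4, whose window held none of the motifs. The ER stress element, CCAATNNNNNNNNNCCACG, is the site through which Atf6 acts with the factor NF-Y, and 7 of the 12 chaperone windows held it (Hspa5, Hsp90b1, Calr, Canx, Pdia6, Dnajc3 and Creld2), as did Syvn1. Over all 27025 genes with a window the share was 0.137%. The stretches below are shown for the chaperones that the results turn on, each 5′ to 3′ on the strand of its gene, with the matched element in capitals and a run of flanking bases in lower case. An element on the opposite strand reads CGTGG first and ATTGG last.
Pdia6 (chr12:17266471-17266529, plus strand, element starting 98 bases before the start site): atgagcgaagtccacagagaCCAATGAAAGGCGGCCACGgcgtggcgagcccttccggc
Hspa5 (chr2:34772005-34772063, plus strand, 65 bases before): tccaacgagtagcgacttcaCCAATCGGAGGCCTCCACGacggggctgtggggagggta
Calr (chr8:84847055-84847113, minus strand, 162 bases before): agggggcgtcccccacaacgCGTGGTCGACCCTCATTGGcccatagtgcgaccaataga
Creld2 (chr15:88819500-88819558, plus strand, 126 bases before): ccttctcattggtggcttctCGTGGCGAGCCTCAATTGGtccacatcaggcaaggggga
Hsp90b1 (chr10:86705618-86705676, minus strand, 212 bases before): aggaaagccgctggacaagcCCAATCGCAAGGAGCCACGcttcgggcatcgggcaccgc

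Hsp90b1 held a second element, starting 107 bases before the start site. The second form of the element (ATTGG, any 1 base, then CCACG) was found in the windows of Dnajb11 and Herpud1 and in 0.0444% of all genes. The core of the Xbp1 element, TGACGTGG, was in none of the 33 windows and in 0.714% of all genes. The core of the amino acid response element, TGATGNAA, through which Atf4 acts with C/EBP partners, was found in 4 of 11 Atf4 target windows (Asns, Chac1, Slc7a11 and Trib3), in Atf3 and in Herpud1, against 4.51% of all genes. Of the 5 genes called in a comparison between lines below, Pdia6 held the ER stress element and Slc7a11 the amino acid response core at 2 places, whereas Ddit4, Psat1 and Mthfd2 held none of the 4 motifs. A match describes letters in this window and no more. The 2 overlapping Slc7a11 stretches, and those of Atf3 and Herpud1, are shown with the core in capitals; read from the opposite strand the core begins with TT and ends with CATCA.
Slc7a11 (chr3:50443652-50443699, minus strand, 66 bases before): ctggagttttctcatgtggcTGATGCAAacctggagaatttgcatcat
Slc7a11 (chr3:50443633-50443680, minus strand, 47 bases before): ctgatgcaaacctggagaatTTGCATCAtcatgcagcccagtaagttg
Atf3 (chr1:191183416-191183463, minus strand, 110 bases before): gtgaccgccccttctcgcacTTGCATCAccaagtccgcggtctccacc
Herpud1 (chr8:94386297-94386344, plus strand, 112 bases before): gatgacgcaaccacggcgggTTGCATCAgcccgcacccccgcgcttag

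Across the 12 arrays, the chaperones lay low together on the array left out of the fits. On Nlrx1-/- parental replicate 1 the median chaperone was 1.24 below its own median over the fitted arrays, and 18 of the 34 genes, among them 10 of 12 chaperones and 3 of 4 degradation genes, had their lowest value of all 12 arrays there. Over the 11 fitted arrays, the range of a chaperone from its lowest to its highest array was 0.70 to 1.99 with a median of 1.32, and that of a measurable Atf4 target was 1.02 to 3.93 with a median of 1.81. Sesn2 and Ppp1r15a, an antioxidant regulator and the phosphatase subunit that restores translation, lay under the median of the negative control features on all 12 arrays, so no size or direction is given for them and the Atf4 targets are summarised over the other 9. Ddit4 had the widest range of the 34 genes on the fitted arrays and Canx the narrowest. WT 4T1OE-CTL replicate 1 held the highest value of all 3 stress transcription factors, with 11.83 for Atf4, 11.72 for Atf3 and 10.09 for Ddit3.

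**Figure D1:**
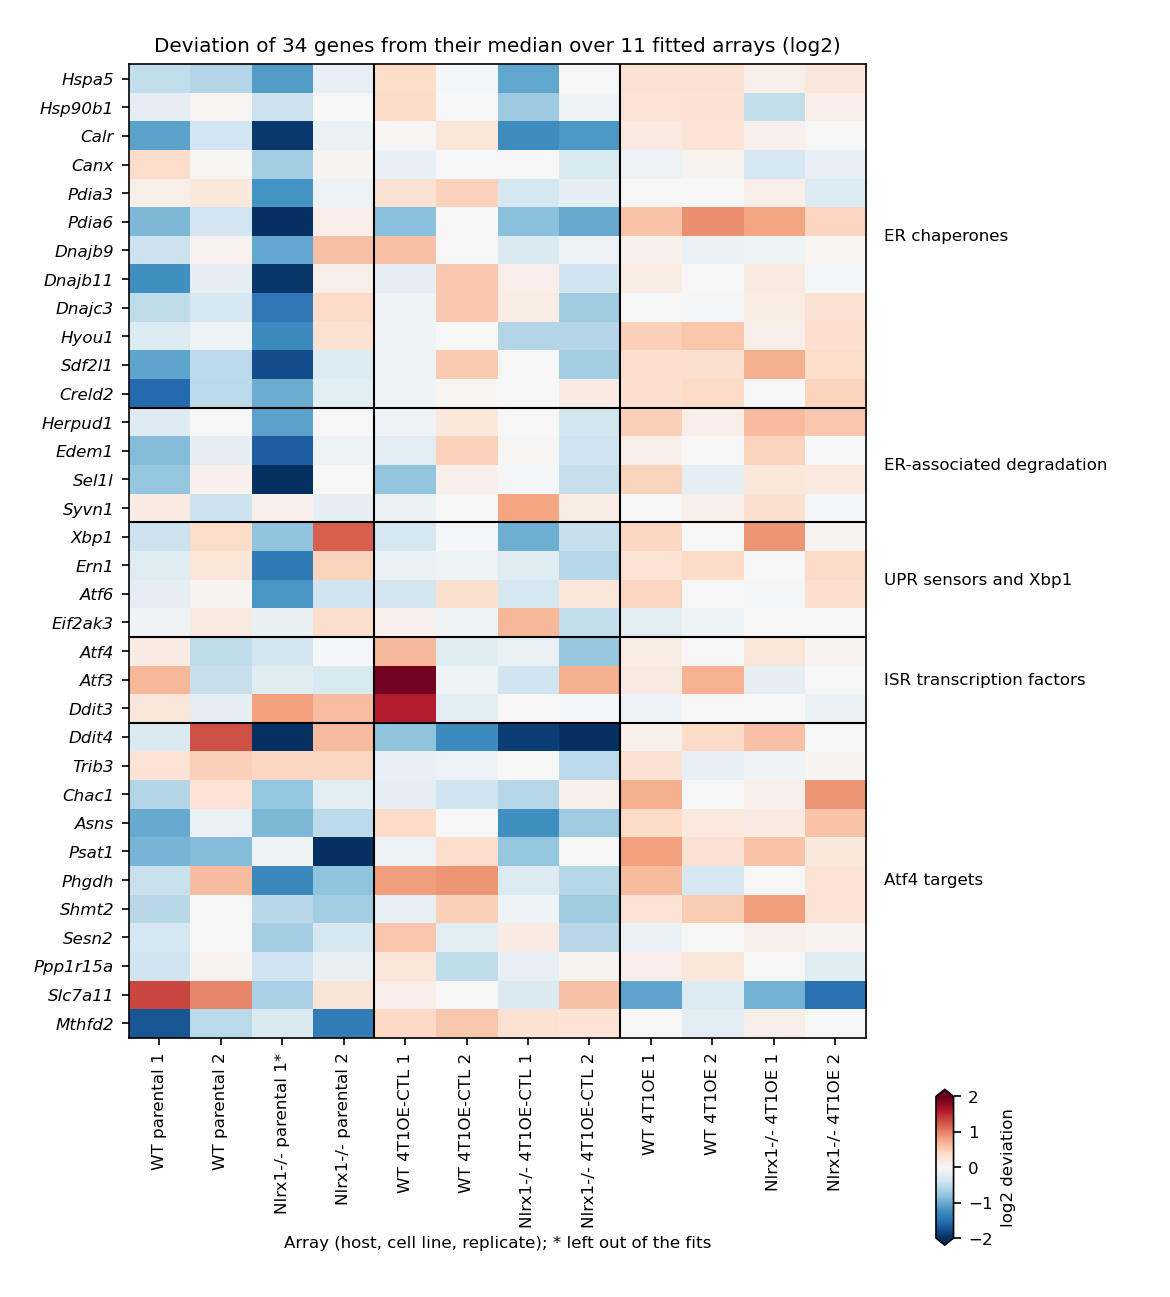
Heat map of the log2 deviation of each of the 34 genes (rows, grouped by role) from its median over the 11 fitted arrays, on all 12 arrays (columns, by line, host and replicate), with colours ending at 2 in either direction. Nlrx1-/- parental replicate 1, marked with an asterisk, held the lowest value of 18 genes, a count without the share of all features. Ddit4 was low on the 4 4T1OE-CTL arrays. Sesn2 and Ppp1r15a are drawn although under the negative controls throughout.

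The first comparison asked how the genes differ between 4T1OE tumours and tumours of the control line, with the host in the model. The folding enzyme Pdia6 and the Atf4 target Ddit4 rose in 4T1OE tumours, by 1.35 and 1.92 on the log2 scale, which are 2.54-fold and 3.78-fold. None of the 34 genes was called lower, although 10 had a difference below 0. These 2 calls at an adjusted p under 0.05 stood against 4.73% of all features called in either direction, 3.69% higher and 1.04% lower. At an unadjusted p under 0.05 there were 10 of the 34 genes, against 24.2% of all features. The values of the lines did not overlap for 6 genes, against 16.5% of all features. Pdia6, Hyou1, Xbp1, Ern1 and Ddit4 were higher in 4T1OE tumours, and Mthfd2 was lower (-0.41).

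Pdia6, a disulfide isomerase of the ER that also restrains Ern1 signalling, was at 16.37 and 16.73 in WT and at 16.58 and 16.23 in Nlrx1-/- hosts on the 4T1OE arrays. On the 4T1OE-CTL arrays it was at 14.97 and 15.80 in WT and at 14.96 and 14.80 in Nlrx1-/- hosts. On the parental arrays it was at 14.91 and 15.42 in WT hosts, at 15.93 on the fitted Nlrx1-/- array and at 13.61 on the one left out. Every 4T1OE array lay above every array of the other lines. The means were 16.48 ± 0.22 (SD, n = 4) in 4T1OE and 15.13 ± 0.45 (n = 4) in 4T1OE-CTL tumours (SE of the difference 0.28, limma adjusted p = 0.0248). With the spread of each array in the model the difference was 0.62 (adjusted p = 0.655), which is not a call. Leaving out the arrays of spread under 3 gave 0.64. That setting keeps only the WT 4T1OE-CTL array at 15.80, the highest of its line, so it cannot show whether the call holds. The call was also lost without any 1 of the 4 4T1OE arrays, WT 4T1OE-CTL replicate 1 or either Nlrx1-/- 4T1OE-CTL array. Those differences were 1.23 to 1.43, with adjusted p from 0.0541 to 0.0876.

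Ddit4, which encodes an inhibitor of the growth kinase mTORC1 and also responds to hypoxia and glucocorticoids, was at 11.74 and 12.01 in WT and at 12.22 and 11.63 in Nlrx1-/- hosts on the 4T1OE arrays. On the 4T1OE-CTL arrays it was at 10.84 and 10.36 in WT and at 9.76 and 8.98 in Nlrx1-/- hosts. On the parental arrays it was at 11.34 and 12.91 in WT hosts, at 12.27 on the fitted Nlrx1-/- array and at 9.49 on the one left out. The 4T1OE-CTL arrays lay below all other fitted arrays, and the 4T1OE and parental values overlapped. The means were 11.90 ± 0.27 (SD, n = 4) in 4T1OE, 9.98 ± 0.80 (n = 4) in 4T1OE-CTL and 12.17 ± 0.79 (n = 3) in parental tumours. The difference of 1.92 between 4T1OE and 4T1OE-CTL had an SE of 0.38 and a limma adjusted p of 0.0225. It became 1.01 with the array spread in the model (adjusted p = 0.647). Without the arrays of spread under 3, which keeps only WT replicate 2 of 4T1OE-CTL, it was 1.63. The call was lost without WT 4T1OE replicate 2, either Nlrx1-/- 4T1OE array or Nlrx1-/- 4T1OE-CTL replicate 2, with differences of 1.62 to 1.95 and adjusted p from 0.0615 to 0.0856.

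**Figure D2:**
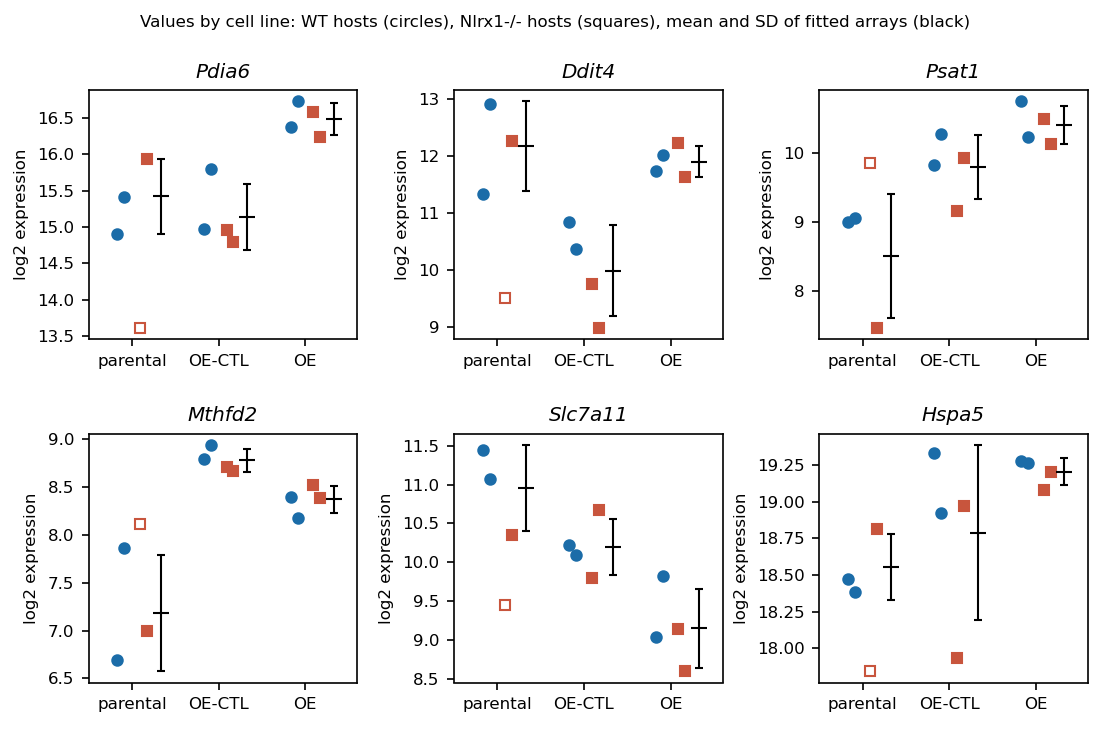
Log2 expression (vertical axes, which do not start at 0) of the 5 genes called in a comparison between lines and of Hspa5, by cell line, with WT hosts as circles, Nlrx1-/- hosts as squares, the array left out of the fits as an open square, and the mean and SD of the fitted arrays in black. All 4 4T1OE arrays lie above the others for Pdia6, and all 4 4T1OE-CTL arrays lie below the other fitted arrays for Ddit4.

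The other chaperones did not pass in 4T1OE against 4T1OE-CTL tumours. Of all 12, 9 differences were above 0, with a median of 0.21 beside -0.05 for all features. That median turned to -0.02 with quantile normalization and -0.09 with the array spread as a covariate. It was -0.08 when the arrays of spread under 3 were left out, which keeps only WT replicate 2 of 4T1OE-CTL. Hspa5, the main ER chaperone, was at 19.27 and 19.27 in WT and 19.08 and 19.20 in Nlrx1-/- hosts on the 4T1OE arrays, and at 19.33, 18.93, 17.93 and 18.97 on the 4T1OE-CTL arrays. Its ranges overlapped, and the difference was 0.42 (95% interval -0.15 to 0.99). The highest value of any feature on the same array lay 0.66 to 0.85 above it on the 4T1OE arrays, and 0.27, 0.99, 1.80 and 0.49 above it on the 4T1OE-CTL arrays. Hyou1, which exchanges nucleotide on Hspa5, had the smallest p among the chaperones that did not pass (0.68, SE 0.21, limma adjusted p = 0.0827). Calr, a lectin chaperone of glycoproteins, differed by 0.67 (95% interval -0.02 to 1.36) and its lectin partner Canx by -0.02 (-0.40 to 0.36).

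Among the degradation genes and sensors, 3 of 4 in each list were above 0 in 4T1OE against 4T1OE-CTL tumours, with medians of 0.32 and 0.37, and none passed. Herpud1, which gathers the degradation machinery at the ER membrane, differed by 0.51 (SE 0.19, limma adjusted p = 0.144). Xbp1 was at 12.80 to 13.69 on the 4T1OE arrays and at 11.82 to 12.76 on the 4T1OE-CTL arrays, without overlap, and differed by 0.79 (SE 0.34, adjusted p = 0.177). The spliced form of Xbp1 was not measured separately. Its splicing enzyme Ern1 was at 9.55 to 9.93 and at 8.98 to 9.44, also without overlap (0.52, SE 0.21, adjusted p = 0.153). Atf6 and Eif2ak3, the other sensors, differed by 0.22 and -0.12.

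The transcription factors of the integrated stress response did not follow one direction. Atf4 differed by 0.23 (95% interval -0.35 to 0.82), Atf3 by -0.36 (-1.26 to 0.54) and Ddit3 by -0.40 (-1.16 to 0.36) between 4T1OE and 4T1OE-CTL tumours. Ddit3, the pro-apoptotic factor CHOP, was at 8.38 to 8.52 on the 4T1OE arrays, and on the 4T1OE-CTL arrays at 8.31, 8.50, 8.52 and, on WT replicate 1, 10.09.

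Of the 9 measurable Atf4 targets, 6 differences were above 0 in 4T1OE against 4T1OE-CTL tumours, beside 45.1% of all features. Their median was 0.59, or 0.24 with Chac1 at its bound, and 0.03 to 0.66 over the alternatives, lowest with the array spread in the model. Slc7a11, the cystine transporter that supplies glutathione synthesis, was at 9.05, 9.83, 9.15 and 8.60 on the 4T1OE arrays and at 10.22, 10.10, 9.80 and 10.67 on the 4T1OE-CTL arrays, WT hosts first. The lines overlapped only between 9.80 and 9.83, and the difference of -1.04 (SE 0.28, limma adjusted p = 0.0563) missed the threshold. Asns, the asparagine synthetase, differed by 0.72 (SE 0.30, adjusted p = 0.175), and Shmt2, of mitochondrial one-carbon metabolism, by 0.59 (SE 0.26, adjusted p = 0.183). Chac1, which degrades glutathione, lay under the negative controls on 8 of 12 arrays, among them all of 4T1OE-CTL and WT 4T1OE replicate 2. Its 4T1OE mean was 0.18 above the negative control level of the 4T1OE-CTL arrays, a bound on means that takes no account of spread. It did not pass (limma adjusted p = 0.148).

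**Figure D3:**
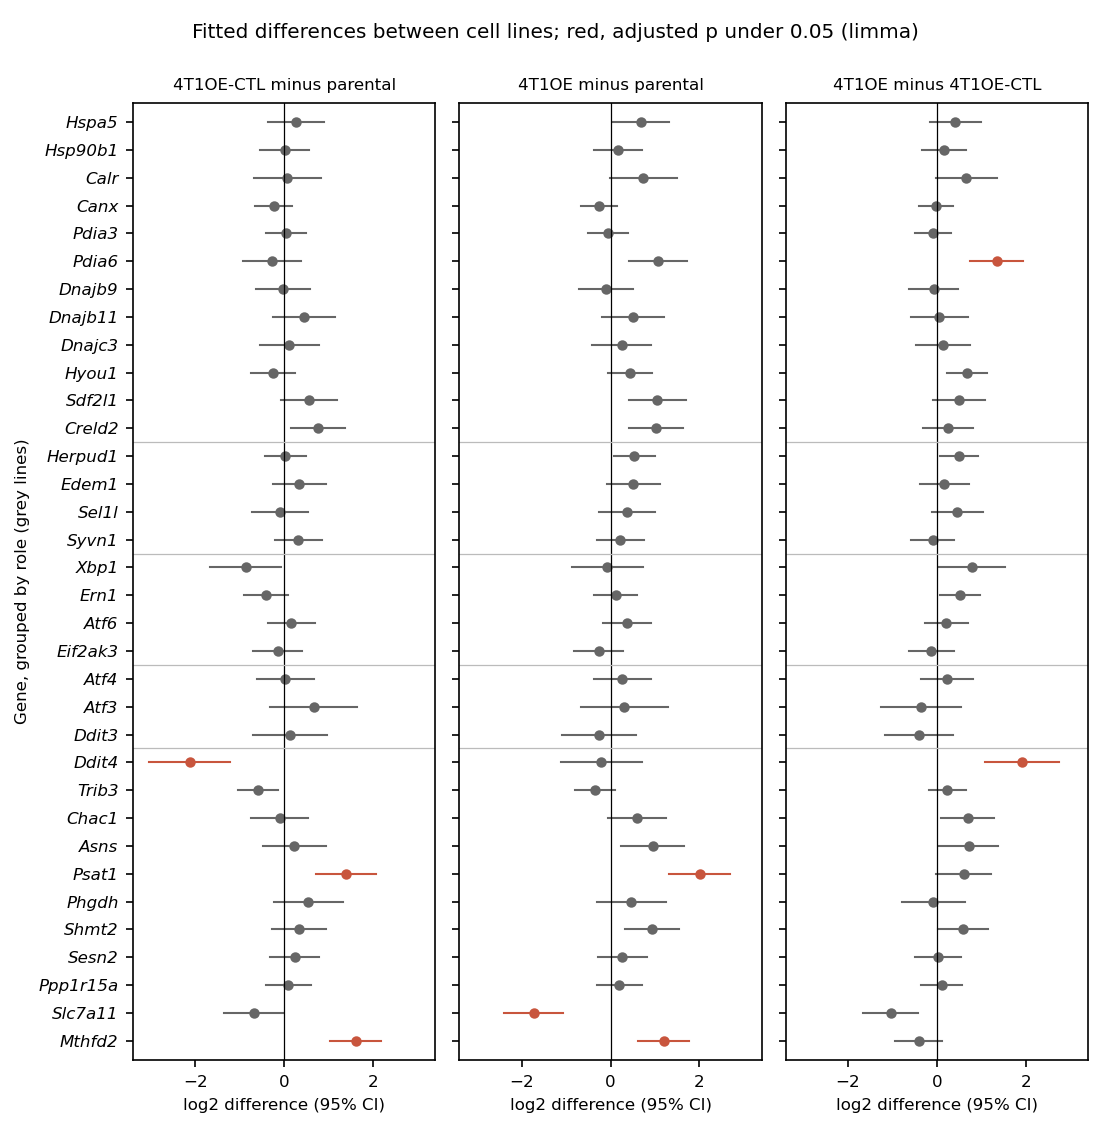
Fitted log2 difference and 95% interval of each of the 34 genes (rows, grouped by role) between lines, with genes at a limma adjusted p under 0.05 in red. Pdia6 and Ddit4 are red in 4T1OE minus 4T1OE-CTL, and Ddit4 lies to the left in 4T1OE-CTL minus parental at -2.12. The points of Sesn2 and Ppp1r15a, and that of Chac1 against 4T1OE-CTL, rest on signals under the negative controls.

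Markers of other cell types moved in the same comparison. All 8 macrophage markers had higher values in 4T1OE tumours (median difference from 4T1OE-CTL 1.22, 4 called), and their summed log2 level was 15.99 to 16.43 against 13.57 to 15.14. Endothelial markers were also higher (6 of 6, median 0.97, 2 called), while plasma cell markers, which mark a secretory cell rich in these chaperones, had a median of -0.31 with 7 of 8 below 0 and none called. B cell markers stood high on Nlrx1-/- 4T1OE replicate 1 and Nlrx1-/- 4T1OE-CTL replicate 1 (median deviations of 3.51 and 4.61), and without both arrays the difference was 1.25 for Pdia6 (limma adjusted p = 0.127) and 1.74 for Ddit4 (adjusted p = 0.116). T cell markers (5 of 5, median -1.18) and skeletal muscle markers (7 of 7, median -0.75) lay below 0 with none called. Fibroblast markers had 5 of 6 below 0 (median -0.72, none called, 4 at an unadjusted p under 0.05), with summed log2 levels of 13.25 to 14.36 on 4T1OE and 13.97 to 15.45 on 4T1OE-CTL arrays. The summed log2 levels of T cell markers were 8.63 to 11.10 and 8.91 to 12.14, and those of muscle markers 8.75 to 16.15 and 9.70 to 13.87. No macrophage, fibroblast, B cell, T cell or muscle marker lay under the negative controls on every array of either line, whereas Tek of the endothelial and Tnfrsf17 of the plasma cell list did in both. The part of these cells in the differences of the stress genes was not tested.

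The second comparison set the control line against the parental line. Mthfd2 and Psat1 rose in 4T1OE-CTL tumours, by 3.05-fold and 2.63-fold, and Ddit4 fell by 2.12 on the log2 scale, which is 4.36-fold. The 2 higher and 1 lower of 34 stood against 2.59% of all features called, 0.968% higher and 1.62% lower. At an unadjusted p under 0.05 there were 7 genes, against 15.9% of all features. Without overlap between the lines were 6 genes (Canx, Creld2, Ddit4, Trib3, Psat1 and Mthfd2), against 11.3%.

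Mthfd2, the mitochondrial folate dehydrogenase, was at 8.80 and 8.94 in WT and at 8.71 and 8.67 in Nlrx1-/- hosts on the 4T1OE-CTL arrays. On the parental arrays it was at 6.69 and 7.86 in WT hosts, at 6.998 on the fitted Nlrx1-/- array and at 8.11 on the one left out. All 4 control line arrays lay above all parental arrays, the omitted one included. The means were 8.78 ± 0.12 (SD, n = 4) and 7.18 ± 0.61 (n = 3), with a difference of 1.61 (SE 0.26, limma adjusted p = 0.00812). The call was lost without Nlrx1-/- parental replicate 2 (1.51, adjusted p = 0.0883). Without the arrays of spread under 3, which keeps only WT replicate 2 of 4T1OE-CTL, the difference was 1.42.

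Psat1, the aminotransferase of serine synthesis, was at 9.82 and 10.28 in WT and at 9.16 and 9.93 in Nlrx1-/- hosts on the 4T1OE-CTL arrays. On the parental arrays it was at 8.999 and 9.06 in WT hosts, at 7.47 on the fitted Nlrx1-/- array and at 9.86 on the one left out, which lies inside the range of the control line. The means over fitted arrays were 9.80 ± 0.47 (SD, n = 4) and 8.51 ± 0.90 (n = 3), with a difference of 1.40 (SE 0.31, limma adjusted p = 0.0371). It was 0.94 without Nlrx1-/- parental replicate 2 (adjusted p = 0.287). The call was also lost without WT parental replicate 2, WT 4T1OE replicate 1, Nlrx1-/- 4T1OE replicate 2, either WT 4T1OE-CTL array or Nlrx1-/- 4T1OE-CTL replicate 2, with 1.24 to 1.57 and adjusted p from 0.0562 to 0.0759.

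For Ddit4 the difference of -2.12 had an SE of 0.42 and a limma adjusted p of 0.0214. The call was lost without WT parental replicate 2 (-1.82, adjusted p = 0.0849) or Nlrx1-/- parental replicate 2 (-1.85, adjusted p = 0.183). The other members of both programmes gave no call. Chaperones had a median of 0.05 with 8 of 12 above 0, which took either sign over the alternatives (-0.08 to 0.41). The 9 measurable Atf4 targets had one of 0.23 with 5 above 0, beside 52.0% of all features, which also took either sign (-0.06 to 0.39), falling below 0 without WT parental replicate 1 (-0.06) and without WT 4T1OE-CTL replicate 1 (-0.02). The chaperone median fell below 0 without WT parental replicate 1 (-0.08) and without either WT 4T1OE-CTL array (-0.04 each), with array weights and with 1 mean per group (-0.03 each). Creld2, a folding factor induced by ER stress, was at 8.74 to 8.98 on the control line arrays and at 7.26 to 8.60 on the fitted parental arrays (0.77, SE 0.28, adjusted p = 0.197). Trib3, a pseudokinase that restrains Atf4, was at 6.37 to 6.91 and at 7.19 to 7.39 (-0.59, SE 0.21, adjusted p = 0.178).

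The comparison of 4T1OE with parental tumours shares arrays with both comparisons above, so its values stand beside theirs as no separate support. Psat1 and Mthfd2 rose in 4T1OE tumours, by 4.01-fold and 2.30-fold, and Slc7a11 fell by 1.73 on the log2 scale, which is 3.31-fold. The 2 higher and 1 lower stood against 1.33% of all features called, 0.887% higher and 0.441% lower. At an unadjusted p under 0.05 there were 10 genes, against 13.8% of all features, and 12 genes did not overlap between the lines, against 17.8%. Of these 12, Hspa5, Calr, Pdia6, Sdf2l1 and Creld2 were chaperones, Herpud1 and Edem1 degradation genes, and Asns, Psat1, Shmt2, Slc7a11 and Mthfd2 Atf4 targets.

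Psat1 was at 10.75 and 10.24 in WT and at 10.50 and 10.14 in Nlrx1-/- hosts on the 4T1OE arrays, above every parental array. The difference from parental tumours was 2.00 (SE 0.31, limma adjusted p = 0.0125), and 1.55 without Nlrx1-/- parental replicate 2 (adjusted p = 0.0642). Mthfd2 was at 8.40, 8.18, 8.52 and 8.39 on the 4T1OE arrays, WT hosts first, above every parental array, and below every 4T1OE-CTL array. Its difference of 1.20 from parental tumours (SE 0.26, adjusted p = 0.0493) kept the call without WT parental replicate 2 (1.53) but lost it without any other single array, with 0.94 to 1.30 and adjusted p from 0.056 to 0.166.

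Slc7a11 was at 11.44 and 11.08 in WT hosts, at 10.35 on the fitted Nlrx1-/- array and at 9.45 on the one left out of the parental group. All 4 4T1OE arrays lay below the fitted parental arrays, and the omitted array lay inside their range. The means were 9.16 ± 0.51 (SD, n = 4) in 4T1OE, 10.20 ± 0.36 (n = 4) in 4T1OE-CTL and 10.95 ± 0.56 (n = 3) in parental tumours, with a difference of -1.73 between the first and the last (SE 0.31, limma adjusted p = 0.0217). The call was lost without any 1 of the 3 parental arrays, WT 4T1OE replicate 1 or either Nlrx1-/- 4T1OE array, with -1.98 to -1.56 and adjusted p from 0.0524 to 0.0812.

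Chaperones in 4T1OE against parental tumours had a median of 0.46 with 9 of 12 above 0, and 4 of 12 at an unadjusted p under 0.05, beside a median of -0.03 for all features. Sdf2l1, a partner of Dnajb11 at Hspa5, was at 9.14, 9.12, 9.52 and 9.17 on the 4T1OE arrays and at 7.75, 8.28 and 8.52 on the fitted parental arrays (1.06, SE 0.29, limma adjusted p = 0.114). Pdia6 differed by 1.07 (adjusted p = 0.12), Creld2 by 1.02 (adjusted p = 0.109) and Hspa5 by 0.68 (adjusted p = 0.307). The co-chaperones Dnajb9, Dnajb11 and Dnajc3 differed by -0.10, 0.50 and 0.25, and the isomerase Pdia3 by -0.05. Over the alternatives, the median stayed above 0, between 0.19 and 0.82. Of the 9 measurable Atf4 targets 6 were above 0, beside 46.7% of all features, with a median of 0.59 (0.39 to 0.83 over the alternatives). That median is the difference of Chac1, and the next lower one was 0.47, of Phgdh. Chac1 lay under the negative controls on WT parental replicate 1, the fitted Nlrx1-/- parental array and WT 4T1OE replicate 2.

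Beside both comparisons with the parental line, all 9 epithelial markers were lower in the transduced lines, with medians of -2.97 in 4T1OE-CTL (5 called) and -2.06 in 4T1OE tumours (4 called). Their summed log2 level was 16.97 to 17.68 on parental, 14.37 to 16.65 on 4T1OE-CTL and 16.15 to 16.72 on 4T1OE arrays. Cldn7 lay under the negative controls on every array of both transduced lines. Fibroblast markers had medians of -1.34 (5 of 6 below 0, 2 called) and -2.29 (6 of 6, 4 called). Skeletal muscle markers, whose median deviation was -0.48 to -0.33 on the fitted parental arrays, reached 4.30 on a 4T1OE-CTL and 5.53 on a 4T1OE array, and T cell markers were above 0 in both comparisons (5 of 5 each, none called). Macrophage markers were mostly below 0 in 4T1OE-CTL against parental tumours (7 of 8, median -0.50, none called) and above 0 in 4T1OE against parental tumours (8 of 8, median 0.84, none called). Endothelial markers were below 0 in the former (6 of 6, median -0.76, 1 called) and on both sides of 0 in the latter (3 of 6 each way, median 0.07, none called). The part of these in the differences of the stress genes was not tested.

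Chaperones and Atf4 targets can be set side by side on each array as the median deviation of the list from the median of each gene over the fitted arrays. The chaperone value was 0.11 to 0.27 on the 4 4T1OE arrays, -0.36 to 0.02 on the 4T1OE-CTL arrays and -0.50 to 0.02 on the fitted parental arrays. The value of the 9 measurable Atf4 targets was 0.00 to 0.30, -0.54 to 0.00 and -0.55 to 0.28. For the chaperones the 4T1OE arrays lay above all others, and for the Atf4 targets the 4T1OE and parental arrays overlapped, while the 4T1OE and 4T1OE-CTL arrays met at 0.00. The tRNA synthetases, which Atf4 also drives, parted in the same way as the chaperones. Their value was 0.14 to 0.38 on the 4T1OE, -0.37 to 0.07 on the 4T1OE-CTL and -0.42 to -0.02 on the fitted parental arrays. These values are not corrected for the array spread, which was wider on the 4T1OE than on the 4T1OE-CTL arrays. As given above, the chaperone median difference between those lines fell below 0 with quantile normalization or that spread as a covariate. The difference of the pair, chaperones minus targets, averaged 0.04 ± 0.16 (SD, n = 4) in 4T1OE, 0.05 ± 0.09 (n = 4) in 4T1OE-CTL and 0.02 ± 0.55 (n = 3) in parental tumours. The lines differed in this value by less than the spread of their arrays.

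**Figure D4:**
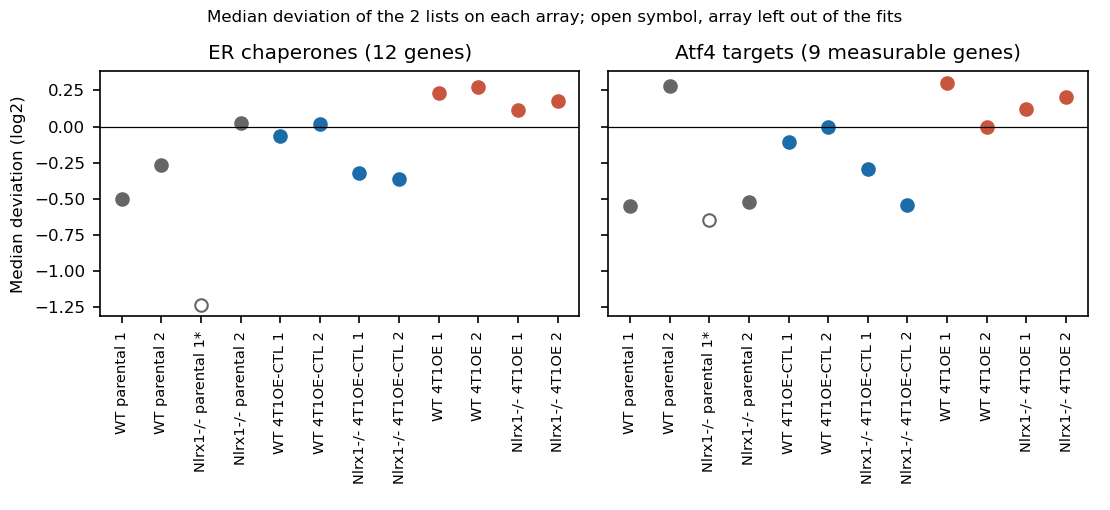
Median log2 deviation of the 12 chaperones and of the 9 measurable Atf4 targets on each of the 12 arrays, grey for parental, blue for 4T1OE-CTL and red for 4T1OE tumours, with the array left out of the fits as an open circle. The chaperone value is 0.11 to 0.27 on 4T1OE arrays and -1.24 on Nlrx1-/- parental replicate 1.

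Group means over the fitted arrays and over all 12 differed in where the chaperones lay low. Of the 12 chaperones, 6 had their highest group mean in WT 4T1OE tumours either way. On the fitted arrays 6 had their lowest mean in Nlrx1-/- 4T1OE-CTL and 5 in WT parental tumours, whereas over all 12 arrays 8 were lowest in Nlrx1-/- parental, 3 in Nlrx1-/- 4T1OE-CTL and 1 in WT parental tumours. The stress transcription factors had their highest mean in WT 4T1OE-CTL tumours, where replicate 1 stood high, for 3 of 3 on the fitted and 2 of 3 on all arrays. The 9 measurable Atf4 targets had no common order: 3 peaked in Nlrx1-/- 4T1OE and 2 in WT 4T1OE-CTL tumours, and 4 were lowest in Nlrx1-/- parental tumours, either way. Among the degradation genes 3 of 4 peaked in Nlrx1-/- 4T1OE tumours either way, and among the sensors and Xbp1 3 of 4 peaked on the single fitted Nlrx1-/- parental array, but 1 of 4 in that group with both arrays.

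The host comparison asked whether tumours in Nlrx1-/- mice differ from those in WT mice, with the line in the model. No gene of the 34 passed in limma, as none of all features did (0%). At an unadjusted p under 0.05 there were 2, against 4.30% of all features. Psat1 averaged 9.44 ± 1.21 (SD, n = 5) over the arrays from Nlrx1-/- mice and 9.86 ± 0.71 (n = 6) over those from WT mice, with a fitted difference of -0.65 (95% interval -1.19 to -0.11, adjusted p = 1.00). Phgdh, the first enzyme of serine synthesis, averaged 9.43 ± 0.43 and 10.07 ± 0.60 (-0.71, -1.32 to -0.10), and Pdia3 15.37 ± 0.19 and 15.71 ± 0.18 (-0.34, -0.69 to 0.02). The hosts overlapped for all 3. Of the 9 measurable Atf4 targets 8 were below 0 (median -0.39, and -0.43 to -0.18 over the alternatives), beside 49.3% of all features. Of the 12 chaperones 8 were below 0 (median -0.10, but 0.04 without the arrays of spread under 3, where no Nlrx1-/- 4T1OE-CTL array is left). Within lines the directions differed. In 4T1OE-CTL tumours 11 chaperones were below 0 (median -0.53), in 4T1OE tumours 9 (median -0.13), and on the single fitted Nlrx1-/- parental array 2 (median 0.55). The measurable Atf4 targets had medians of -0.50, 0.05 and -0.28 in that order, and all features 0.00, 0.00 and 0.01. These list values were not tested. Markers of other cells went one way between hosts too, with none called: B cells (6 of 6 above 0, median 1.69), neutrophils (5 of 5 below 0, median -1.35), the epithelial list (9 of 9 below 0, median -1.18) and skeletal muscle (7 of 7 below 0, median -1.12). Their part in the host values of the stress genes was not tested.

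Within lines, no gene of the 34 differed by host at an adjusted p under 0.05 in limma. In 4T1OE-CTL tumours the share of all features called was 0%, and 6 of the 34 genes had an unadjusted p under 0.05, against 9.55%. Calr was at 15.91 and 16.01 on the Nlrx1-/- and at 17.19 and 17.41 on the WT 4T1OE-CTL arrays (-1.34, SE 0.29, adjusted p = 0.312). Asns was at 9.37 and 9.89 against 10.97 and 10.59 (-1.16, SE 0.35, adjusted p = 0.387), and Phgdh at 9.44 and 9.13 against 10.54 and 10.58 (-1.28, SE 0.41, adjusted p = 0.407). The hosts did not overlap for these 3 genes, with 2 arrays on each side. The genes were taken for their smallest p and the share of all features without overlap was not counted, so this adds no support. Both Nlrx1-/- arrays and WT replicate 1 of this line were among those with a spread under 3. Cell markers moved in this comparison too, with none called: epithelial (7 of 9 below 0, median -1.51), neutrophil (5 of 5 below 0, median -2.58) and B cell markers (6 of 6 above 0, median 2.41). Macrophage markers lay on both sides of 0 (4 each way, median 0.04). Their part in the differences of the stress genes was not tested.

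In 4T1OE tumours, again with 0% of features called, no gene of the 34 reached an unadjusted p under 0.05, against 0.874% of all features. Slc7a11 (9.15 and 8.60 in Nlrx1-/-, 9.05 and 9.83 in WT hosts) differed by -0.56 (95% interval -1.42 to 0.29). Hsp90b1, the ER form of Hsp90, was at 17.36 and 17.98 against 18.14 and 18.14 (-0.47, -1.19 to 0.26), and Hyou1 at 13.07 and 13.30 against 13.44 and 13.51 (-0.29, -0.83 to 0.26).

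In parental tumours 0% of features were called too, and 2 of the 34 genes had an unadjusted p under 0.05, against 4.70%. The single fitted Nlrx1-/- array was lower than both WT arrays in Psat1 (7.47 against 8.999 and 9.06, limma adjusted p = 0.694) and higher in Xbp1 (13.99 against 12.38 and 13.17, adjusted p = 0.987) and in the co-chaperone Dnajb9 (11.88 against 10.85 and 11.36, adjusted p = 1.00). The array left out lay on the opposite side of the WT arrays for all 3 genes, at 9.86 for Psat1, 12.00 for Xbp1 and 10.26 for Dnajb9.

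The difference between 4T1OE and 4T1OE-CTL tumours was also taken within each host. In Nlrx1-/- hosts Ddit4 rose by 2.56 (SE 0.49, limma adjusted p = 0.0439), the only call among the 34 genes, against 1.19% of all features. At an unadjusted p under 0.05 there were 11 of 34, against 20.8%. Pdia6 differed by 1.53 (SE 0.34, adjusted p = 0.0585) and Calr by 1.25 (SE 0.29, adjusted p = 0.0619). Epithelial markers had a median of 1.34 in this comparison (7 of 9 above 0, 2 called). Macrophage markers had one of 1.30 (8 of 8 above 0, none called) and skeletal muscle markers one of -2.30 (7 of 7 below 0, none called). Their part in these differences was not tested. The Ddit4 call was lost with the array spread as a covariate (1.61, adjusted p = 0.67), and without any 1 of the 4 4T1OE arrays, either WT 4T1OE-CTL array or Nlrx1-/- 4T1OE-CTL replicate 2, with 2.17 to 2.86 and adjusted p from 0.0563 to 0.304.

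In WT hosts no gene of the 34 passed in limma, against 0.0135% of all features, and 3 had an unadjusted p under 0.05, against 8.07%. Pdia6 differed by 1.16 (SE 0.34, adjusted p = 0.413), Ddit4 by 1.28 (SE 0.49, adjusted p = 0.565) and Hyou1 by 0.55 (SE 0.24, adjusted p = 0.613). Whether the line difference itself depended on the host was tested as an interaction, and none of the 34 genes passed, as none of all features did (0%). At an unadjusted p under 0.05 there were 2, against 3.27% of all features. The terms with the smallest p were those of Calr (1.16, 95% interval 0.25 to 2.06), Asns (1.24, 0.12 to 2.36) and Phgdh (1.26, -0.05 to 2.57), each with an adjusted p of 0.999.

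Neighbouring genes of the same pathways, not among the 36, gave few calls. Of 20 other ER folding and trafficking genes none passed between any lines in limma. An unadjusted p under 0.05 was reached by 5 in 4T1OE against 4T1OE-CTL (24.2% of all features), 3 in 4T1OE-CTL against parental (15.9%) and 1 in 4T1OE against parental tumours (13.8%), so these counts lay near or under the share of all features. The calls named next stand against 4.73% of all features called in 4T1OE against 4T1OE-CTL and 1.33% in 4T1OE against parental tumours. Whether these calls hold under the alternatives was not tested. As given above, Pdia6 and Ddit4 lost their calls in the former comparison with the array spread in the model. Of 8 other degradation genes, Erlec1, a lectin of the ER lumen, fell in 4T1OE against parental tumours by 1.11 (SE 0.21, adjusted p = 0.0274). Of 22 other genes of the integrated stress response and amino acid supply, Eif2ak2, the eIF2 alpha kinase that senses double-stranded RNA, rose in 4T1OE tumours, by 0.85 against 4T1OE-CTL (SE 0.20, adjusted p = 0.0344) and by 0.99 against parental tumours (SE 0.21, adjusted p = 0.0458). Its values on the 4T1OE arrays were 11.02, 11.06, 10.87 and 11.03, above the 9.67 to 10.75 of all other arrays. Psph, the last enzyme of serine synthesis, fell by 1.22 against 4T1OE-CTL tumours (SE 0.27, adjusted p = 0.0315), whereas Psat1, the enzyme before it, differed by 0.61 (adjusted p = 0.217). Of 11 tRNA synthetases, a class that Atf4 also drives, Iars rose by 0.84 against 4T1OE-CTL (SE 0.18, adjusted p = 0.0278) and Tars by 1.48 against parental tumours (SE 0.32, adjusted p = 0.0498). All 11 synthetases were above 0 in the first of these comparisons (median 0.39) and 10 of 11 in the second (median 0.48).

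The differences of the genes above the negative controls were also set beside the motifs. In 4T1OE against 4T1OE-CTL tumours the 8 genes with an ER stress element had a median difference of 0.21 (1 called) and the 22 with a window but no element one of 0.24, or 0.21 with Chac1 at its bound (1 called). The 6 genes with the amino acid response core had a median of 0.37, or 0.21 with Chac1 at its bound (0 called), and the 24 without it one of 0.20 (2 called). In 4T1OE against parental tumours the medians were 0.47 with and 0.34 without the ER stress element, and 0.42 with and 0.32 without the core. In 4T1OE-CTL against parental tumours they were 0.09 and 0.03 for the element, and -0.04 and 0.09 for the core. Between hosts they were -0.10 and -0.07 for the element, and -0.23 and -0.06 for the core. The single genes with and without a motif overlapped in all 4 comparisons.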

How the data were processed

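Expression was measured on 12 tumour arrays. The deposited values are log2 expression, 1 per feature and array, normalized and summarised by the authors. Transcriptome Analysis Console is named per the submitters' processing notes. Its version and the background correction and normalization are not given in the sources used here. Nothing was normalized again or filtered for low values, and 6640 control features were removed. Of the remaining 22206, the platform annotation gave 1 symbol to 19572 and none to 2634.

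Every feature was tested two-sided in limma 3.58.1 under R 4.3.3, using empirical Bayes moderation, Benjamini-Hochberg adjustment across 22206 features and a threshold of 0.05. An additive model of host and line gave the comparisons between lines and hosts, and a model with 1 mean per group those within a line or host and the interaction. Arrays are pools of an unstated number of tumours, so p-values measure the spread between pools.

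The genes, the pathway and marker lists and the tests were chosen with earlier results of these data known. Full statistics are given for every called gene and, in comparisons with fewer than 4 calls, for the 3 genes of smallest p. Of the other pathway lists, called genes are named. Other genes given with values were picked for their role after their values were seen. A gene under the negative control median on every array of 1 side has only a bound, taken from the brighter side's mean and, for the dim side, from that median on each array unless the gene's own value was higher. Leaving Sesn2 and Ppp1r15a out of the summaries of Atf4 targets was decided after seeing the data. The fit was tested on simulated data. The array spread is the standard deviation of all values of an array. Alternatives covered the arrays used, normalization, dim features, weights, covariates, the replicate block and the threshold.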

Additional observations from a re-analysis of the deposited data

Results flagged for a closer look

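Among the 4 arrays of a line, the omitted one included, a single array far from the other 3 was looked for in 108 sets. They were made of the 34 genes and the 2 list values in each of 3 lines, and 2 such arrays were found. Here the Atf4 list value was that of all 11 targets, and Sesn2 and Ppp1r15a were searched although under the negative controls. Chance alone flags about 1 in 20 such sets. Ddit3 was at 10.09 on WT 4T1OE-CTL replicate 1, with the other 3 arrays of the line between 8.31 and 8.52. Atf4 and Atf3 also had their highest value of the 12 arrays there. Sdf2l1 was at 9.52 on Nlrx1-/- 4T1OE replicate 1, with the other 3 arrays of the line between 9.12 and 9.17.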

How the results depend on the processing

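The 9 calls kept their direction under all alternatives that gave a value, but the counts of called genes did not hold. With all 12 arrays and no covariate, 0 of 34 genes passed in any comparison. Against 2, 3 and 3 genes called (4T1OE against 4T1OE-CTL, 4T1OE-CTL against parental, 4T1OE against parental), leaving out single arrays gave 0 to 3, 0 to 3 and 0 to 2. Array weights gave 4 in the first comparison. The array spread as a covariate, with 11 or 12 arrays, gave 0 in the first and 1 in the third. In the first, that spread did not overlap between the lines. Leaving out the arrays of spread under 3 keeps only WT replicate 2 of 4T1OE-CTL, so no count is given for it. Leaving out the arrays with high B cell markers gave 0 in the first and 1 in the third. For the first comparison in Nlrx1-/- hosts, with 1 call, leaving out single arrays gave 0 to 3, and 0 passed with all 12 arrays, with quantile normalization, with the compared groups alone, with the spread as a covariate (11 or 12 arrays) and without the arrays of high B cell markers. A looser rule, an unadjusted p under 0.05 with a fold of 2, gave 6 in the third comparison and 6 in Nlrx1-/- and 2 in WT hosts for the first, 2 for the interaction, and 4 and 2 for the hosts in 4T1OE-CTL and parental tumours. Host comparisons gave 0 under all other alternatives. The counts of this paragraph stand without the share of all features called under the same alternative, so they show only how the counts depend on the setting.

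Replicate numbers shared no origin in the labels: over 10 pairs of groups, the correlation of replicate 1 deviations ran from -0.31 to 0.37 (median -0.07), with 2 over 0.1. With the replicate number as a block, the counts were 2, 2 and 2, and 0 for the first comparison in Nlrx1-/- hosts. These counts too stand without the share of all features called under that setting, and show only how the counts depend on it. The B cell alternative and the covariate with 12 arrays were chosen after seeing the data. Without the arrays of spread under 3, no Nlrx1-/- 4T1OE-CTL array is left, so the comparisons that need one were not run. For Sesn2, Ppp1r15a and, on 8 arrays, Chac1, signals under the negative controls limit what can be measured.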

Other observations

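Stress programmes outside the ER gave no calls. Of 8 cytosolic heat shock genes, 5 were above 0 in 4T1OE against 4T1OE-CTL tumours (median 0.15). None of them was called by limma, and an unadjusted p under 0.05 was reached by 2 of 8, beside 24.2% of all features. Their median deviation was 0.63 on WT 4T1OE-CTL replicate 1, the array on which Atf4, Atf3 and Ddit3 were highest, and -0.78 on Nlrx1-/- 4T1OE-CTL replicate 1. Of 7 genes of the mitochondrial unfolded protein response, which concerns the organelle where NLRX1 resides, 5 were above 0 (median 0.10), and limma called none, while 1 of 7 had an unadjusted p under 0.05. In 4T1OE against parental tumours all 7 were above 0 with a median of 0.17, none passed, and 0 had an unadjusted p under 0.05, beside 13.8% of all features.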
